A study of Mus musculus with 14 samples.

Results

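The 9 genes described here, Sycp1, Sycp2, Sycp3, Syce1, Syce2, Syce3, Tex12, Hormad1 and Hormad2, encode structural proteins of the synaptonemal complex and of the chromosome axis on which it is built. They were taken by gene symbol from the deposited RNA-seq tables, where all 9 were found among 20625 named genes, and their gene bodies were then read against the deposited H3K36me3 peak lists. The study asked how loss of Setd2, the enzyme that places trimethylation on lysine 36 of histone H3 (H3K36me3) over transcribed gene bodies, alters this mark and the transcriptome of meiotic and post-meiotic male germ cells. Round spermatids (RS) and pachytene/diplotene spermatocytes (PD) were sorted by flow cytometry after staining with Ho33342 and PI from dissociated testes of adult C57BL/6J mice that were labelled either Setd2KO or WT. The 4 groups were thus RS Setd2KO, RS WT, PD Setd2KO and PD WT, with 2 RNA-seq libraries and 1 H3K36me3 peak list in each. The labels carry no treatment, and neither the Setd2 allele nor any Cre driver is given in the sources used here. Nor is it stated that both libraries of a group stem from different mice, so the p-values below reflect the variation between libraries, and that variation may be technical.

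During meiotic prophase the sister chromatids of each chromosome are organised as loops on a protein axis, which contains SYCP2, SYCP3 and the HORMA-domain proteins HORMAD1 and HORMAD2. Paired axes are then zipped together by transverse filaments of SYCP1, and the central element proteins SYCE1, SYCE2, SYCE3 and TEX12 stabilise the zipper along its midline. The complex is complete in pachytene, comes apart in diplotene and is gone before the meiotic divisions, so that round spermatids, the haploid cells that follow, no longer build it.

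RNA was measured in FPKM, a count of fragments scaled to the length of the transcript and the depth of the library, which allows genes to be compared within a library. Library depth recovered from the values of short genes was 50.8 to 84.9 megareads, so that a single read on a transcript of 1 kb was worth 0.0118 to 0.0197 FPKM, and both libraries of a group correlated at 0.992 to 0.995 across genes. Changes are given as log2 changes between group means on the log2(FPKM + 1) scale with their standard error (SE), and a gene was called changed at an adjusted p under 0.05 in limma, fitted to all 8 libraries with Benjamini-Hochberg adjustment over 11451 tested genes. All 9 genes passed the filter on low values, which asks for a group mean of 1 FPKM or more in 1 or more groups. The RNA of Setd2 itself was 12.1 and 8.67 FPKM in RS Setd2KO, against 5.24 and 5.58 FPKM in RS WT, and 21.0 and 21.4 FPKM in PD Setd2KO, against 21.2 and 19.1 FPKM in PD WT. It was called higher in RS Setd2KO than in RS WT (log2 change 0.81, adjusted p = 0.00162) and was not called in PD (0.07, adjusted p = 0.736). A level over the whole Setd2 transcript does not test a deletion whose extent is not given, so the genotype of each RNA library is taken from its label. The peak lists, from separate ChIP libraries, ran as labelled: H3K36me3 peaks spanned 0.650 Mb in RS Setd2KO, against 229.9 Mb in RS WT, and 0.701 Mb in PD Setd2KO, against 238 Mb in PD WT.

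RNA of genes specific to the other stage was measured in each fraction, for gene sets chosen on WT levels alone. That choice holds the WT percentages low, so the percentages of the genotypes describe the libraries and test no difference. Taken over 517 spermatid-specific genes (20 FPKM or more in RS WT, and lower by 20-fold or more in PD WT), the median level in PD was 13.1% and 7.67% of the RS level in the 2 Setd2KO libraries and 1.92% and 2.77% in the 2 WT libraries. In the other direction, 24 spermatocyte-specific genes other than the 9 (20 FPKM or more in PD WT, and lower by 20-fold or more in RS WT) stood in RS at a median of 5.35% and 4.68% of their PD level in Setd2KO and 3.66% and 4.08% in WT. In RS, the 8 markers of elongating and condensing spermatids summed to 1592 and 1664 FPKM in Setd2KO, against 4967 and 4864 FPKM in WT, and the 6 leptotene and zygotene markers to 25.9 and 23.1 FPKM in Setd2KO, against 14.1 and 15.0 FPKM in WT. Of this last sum, Meioc alone gave 22.6 and 20.0 FPKM in Setd2KO, against 10.6 and 10.4 FPKM in WT, and the other 5 markers together 3.35 and 3.07 FPKM in Setd2KO, against 3.50 and 4.63 FPKM in WT. In PD, those 6 markers summed to 76.6 and 81.7 FPKM in Setd2KO, against 60.8 and 70.4 FPKM in WT, and the 8 spermatogonial markers, led by Id4, to 42.1 and 51.1 FPKM in Setd2KO, against 25.4 and 28.3 FPKM in WT. The 10 round spermatid markers summed to 1284 and 1643 FPKM in RS Setd2KO, against 1923 and 1797 FPKM in RS WT. Over the PD libraries they summed to 66.9 to 228 FPKM, with both Setd2KO sums above both WT sums. Actl7b overlapped between the PD genotypes, and each other marker of the 10 stood higher in both PD Setd2KO libraries. Tex33, for example, had 37.9 and 19.5 FPKM in PD Setd2KO, against 5.23 and 8.76 FPKM in PD WT. The 8 pachytene and diplotene markers, some of which stay on in spermatids, summed to 2218 to 2929 FPKM over all 8 libraries. Ldhc alone gave 1364 to 1962 FPKM of it, so this sum does not set the stages apart. Piwil1 had 148 to 186 FPKM over the PD libraries and 6.33 to 9.08 FPKM over the RS libraries. Pou5f2 had 36.2 to 64.4 FPKM in PD and 2.19 to 3.04 FPKM in RS. Hspa2 and Mybl1 were also lower in every RS library than in any PD library, Ccna1 and Pgk2 were higher, and Ldhc and Tbpl1 overlapped. Between the RS genotypes, Hspa2, Mybl1, Ccna1, Tbpl1 and Pgk2 stood higher in both Setd2KO libraries, while Piwil1, Pou5f2 and Ldhc overlapped. Mybl1 had 18.7 and 14.0 FPKM in RS Setd2KO, against 5.05 and 5.83 FPKM in RS WT. Hspa2 had 444 and 421 FPKM in RS Setd2KO, against 276 and 328 FPKM in RS WT. Among somatic lists, the 4 myoid markers summed to 9.98 and 9.08 FPKM in RS Setd2KO, against 1.65 and 2.93 FPKM in RS WT. Sertoli markers (7 of 8 matched) summed to 11.4 and 9.69 FPKM in RS Setd2KO, against 4.41 and 6.15 FPKM in RS WT. The Leydig cell, macrophage and blood lists each summed to between 0.592 and 14.1 FPKM in any library. The Leydig cell sum was higher in both Setd2KO libraries than in either WT library, in RS and in PD. Its Insl3 had 5.99 and 9.99 FPKM in RS Setd2KO, against 5.78 and 2.88 FPKM in RS WT. In PD the blood sum was higher and the macrophage sum lower in Setd2KO, without overlap, and in RS both overlapped. In RS no matched marker was at 0, and in PD Fshr, Sox9 and Des were at 0 in 1 or 2 libraries each while all other matched markers were above 0. In bulk samples, fewer cells of a type and less RNA per cell cannot be told apart.

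Promoters are shown first, for the genes whose RNA profiles across the 8 libraries were most alike or most opposed (Sycp3 with Hormad1, and Syce2 against both) and for Tex12, the other gene that carries both motifs described next. Each line gives the 250 bases upstream of an annotated RefSeq start (GRCm38.p6), read 5′ to 3′ on the gene's own strand, and all 9 genes had an entry. Capitals mark the E-box palindrome CACGTG and the E2F core GCGGGAA, searched on both strands with no overlap between their matches. Both motifs were picked after these promoters had been read, so their frequency is a description. The Sycp3 window is chr10:88459337-88459586 on the plus strand, that of Hormad1 is chr3:95559427-95559676 on the plus strand, that of Syce2 belongs to the second of 2 annotated starts and is chr8:84872008-84872257 on the plus strand, and that of Tex12 is chr9:50561269-50561518 on the minus strand. Syce1, the most abundant of the 9 in every group, is shown for contrast at chr7:140787855-140788104 on the minus strand, without either motif.
Sycp3: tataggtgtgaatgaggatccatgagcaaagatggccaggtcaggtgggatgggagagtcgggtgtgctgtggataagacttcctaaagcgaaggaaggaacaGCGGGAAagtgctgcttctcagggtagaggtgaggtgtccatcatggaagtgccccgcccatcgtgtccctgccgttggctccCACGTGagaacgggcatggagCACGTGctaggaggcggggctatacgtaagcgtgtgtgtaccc
Hormad1: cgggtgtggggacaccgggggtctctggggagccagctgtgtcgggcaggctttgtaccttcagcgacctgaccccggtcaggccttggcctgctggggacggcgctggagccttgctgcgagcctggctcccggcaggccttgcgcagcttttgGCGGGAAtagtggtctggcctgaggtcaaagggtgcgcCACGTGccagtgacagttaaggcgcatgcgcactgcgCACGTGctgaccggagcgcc
Syce2: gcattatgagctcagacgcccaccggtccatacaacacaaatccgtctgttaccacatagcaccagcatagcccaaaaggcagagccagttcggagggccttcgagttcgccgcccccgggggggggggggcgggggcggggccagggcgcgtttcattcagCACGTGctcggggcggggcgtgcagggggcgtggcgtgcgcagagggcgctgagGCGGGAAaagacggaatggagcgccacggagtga
Tex12: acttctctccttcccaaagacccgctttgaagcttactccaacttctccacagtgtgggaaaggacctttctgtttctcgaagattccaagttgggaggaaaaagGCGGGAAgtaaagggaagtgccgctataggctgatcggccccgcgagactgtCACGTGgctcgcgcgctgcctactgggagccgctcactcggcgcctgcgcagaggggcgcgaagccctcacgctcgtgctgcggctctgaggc
Syce1: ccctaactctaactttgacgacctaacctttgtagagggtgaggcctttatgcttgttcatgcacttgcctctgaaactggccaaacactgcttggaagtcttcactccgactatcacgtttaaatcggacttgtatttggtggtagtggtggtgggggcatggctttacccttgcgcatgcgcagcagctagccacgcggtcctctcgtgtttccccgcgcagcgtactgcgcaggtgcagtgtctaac

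The E-box lay in 5 of the 9 promoters (Sycp1, Sycp3, Syce2, Tex12 and Hormad1), against 9.56% of the 8893 tested genes with an entry and 6.86% of all 27025 genes in the table. Sycp3 and Hormad1 carried it as a pair of copies, which began 64 and 43 bases before the Sycp3 start and 57 and 20 bases before the Hormad1 start. The E2F core lay in 4 promoters (Sycp3, Syce2, Tex12 and Hormad1), against 7.78% of the tested genes and 4.38% of all genes. Both motifs stood together in those 4, against 0.451% of all genes. A gene was counted where any of its annotated starts carried the motif, and the window of the first Syce2 start carried neither. In Sycp2, Syce1, Syce3 and Hormad2 neither motif was found upstream of any annotated start. The 4 promoters with both motifs include Syce2, whose RNA moved opposite to that of Sycp3, Tex12 and Hormad1 between the stages.

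The first comparison was between the stages in WT, because a meiotic gene set is followed here past the point where its proteins are used. Of the 9 genes, 6 fell in RS relative to PD (46.7% of tested genes did), 2 rose (36% did) and Syce1 was not called, so 8 changed (82.7% of tested genes did). For all 9 the RS WT and PD WT libraries did not overlap, as for 89.6% of tested genes. The genes of the axis and the transverse filament fell, as did Tex12, whereas the central element genes split into a falling, a rising and an uncalled part. The median log2 change of the 9 was -1.50, beside a median of -0.21 for all tested genes.

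Sycp2 and Sycp3, which encode the axial core, were among the most abundant of the 9 in PD. Sycp2 had 21.8 and 17.9 FPKM in RS WT, against 108 and 116 FPKM in PD WT. Sycp3 had 19.0 and 17.6 FPKM in RS WT, against 97.1 and 130 FPKM in PD WT. Both were lower in both RS libraries than in either PD library, with log2 changes of -2.44 ± 0.14 (SE; adjusted p = 2.39e-08, limma) and -2.55 ± 0.17 (adjusted p = 7.75e-08).

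Hormad1 and Hormad2 encode the axis proteins that mark chromosome stretches not yet synapsed and leave upon synapsis. Hormad1 had 9.48 and 8.15 FPKM in RS WT, against 76.0 and 79.2 FPKM in PD WT, a log2 change of -3.00 ± 0.16 (adjusted p = 9.42e-09, limma). Hormad2 was the scarcer gene, at 1.61 and 2.01 FPKM in RS WT, against 8.43 and 5.69 FPKM in PD WT, a log2 change of -1.50 ± 0.16 (adjusted p = 2.85e-06). In mean FPKM, Hormad1 was 8.80-fold and Hormad2 3.90-fold lower in RS WT than in PD WT, and whether the 2 falls differ was not tested.

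Sycp1, the transverse filament gene, had 18.6 and 17.7 FPKM in RS WT, against 44.6 and 51.5 FPKM in PD WT. Its log2 change of -1.35 ± 0.15 (adjusted p = 6.43e-06, limma) was past the threshold. RS WT libraries kept 38.7% and 36.8% of the PD WT level of Sycp1, against 16.8% and 15.6% of that of Sycp3.

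The central element genes went separate ways. Tex12 had 0.821 and 0.701 FPKM in RS WT, against 13.1 and 16.8 FPKM in PD WT, and fell by 3.17 ± 0.14 on the log2 scale (adjusted p = 3.73e-09, limma). Syce2 had 41.4 and 36.4 FPKM in RS WT, against 8.11 and 10.3 FPKM in PD WT, and rose by 1.98 ± 0.14 (adjusted p = 1.16e-07). TEX12 and SYCE2 are direct partners that assemble into fibres of the central element, and their genes moved in opposite directions between these stages. The ratio of Syce2 to Tex12 RNA was 50.5 and 52.0 in RS WT, against 0.620 and 0.610 in PD WT. Syce3, whose product is needed for the other central element proteins to load, also rose, with 63.1 and 56.9 FPKM in RS WT, against 21.2 and 33.1 FPKM in PD WT (log2 change 1.15 ± 0.19, adjusted p = 0.000139). Syce1 had 136.6 and 137.0 FPKM in RS WT, against 144 and 205 FPKM in PD WT, and this difference did not pass the test (log2 change -0.33 ± 0.18, adjusted p = 0.108). Syce1 was called lower in RS WT without PD WT library 1 (log2 change -0.58, adjusted p = 0.000158), with upper-quartile scaling (-0.42, adjusted p = 0.00710) and with quantile normalization (-0.56, adjusted p = 0.000158). In RS WT, Syce1, Syce3 and Syce2 were the 3 most abundant of the 9, and Syce1 alone made up 43.7% and 46.5% of their summed FPKM, against 27.7% and 31.7% in PD WT.

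**Figure D1:**
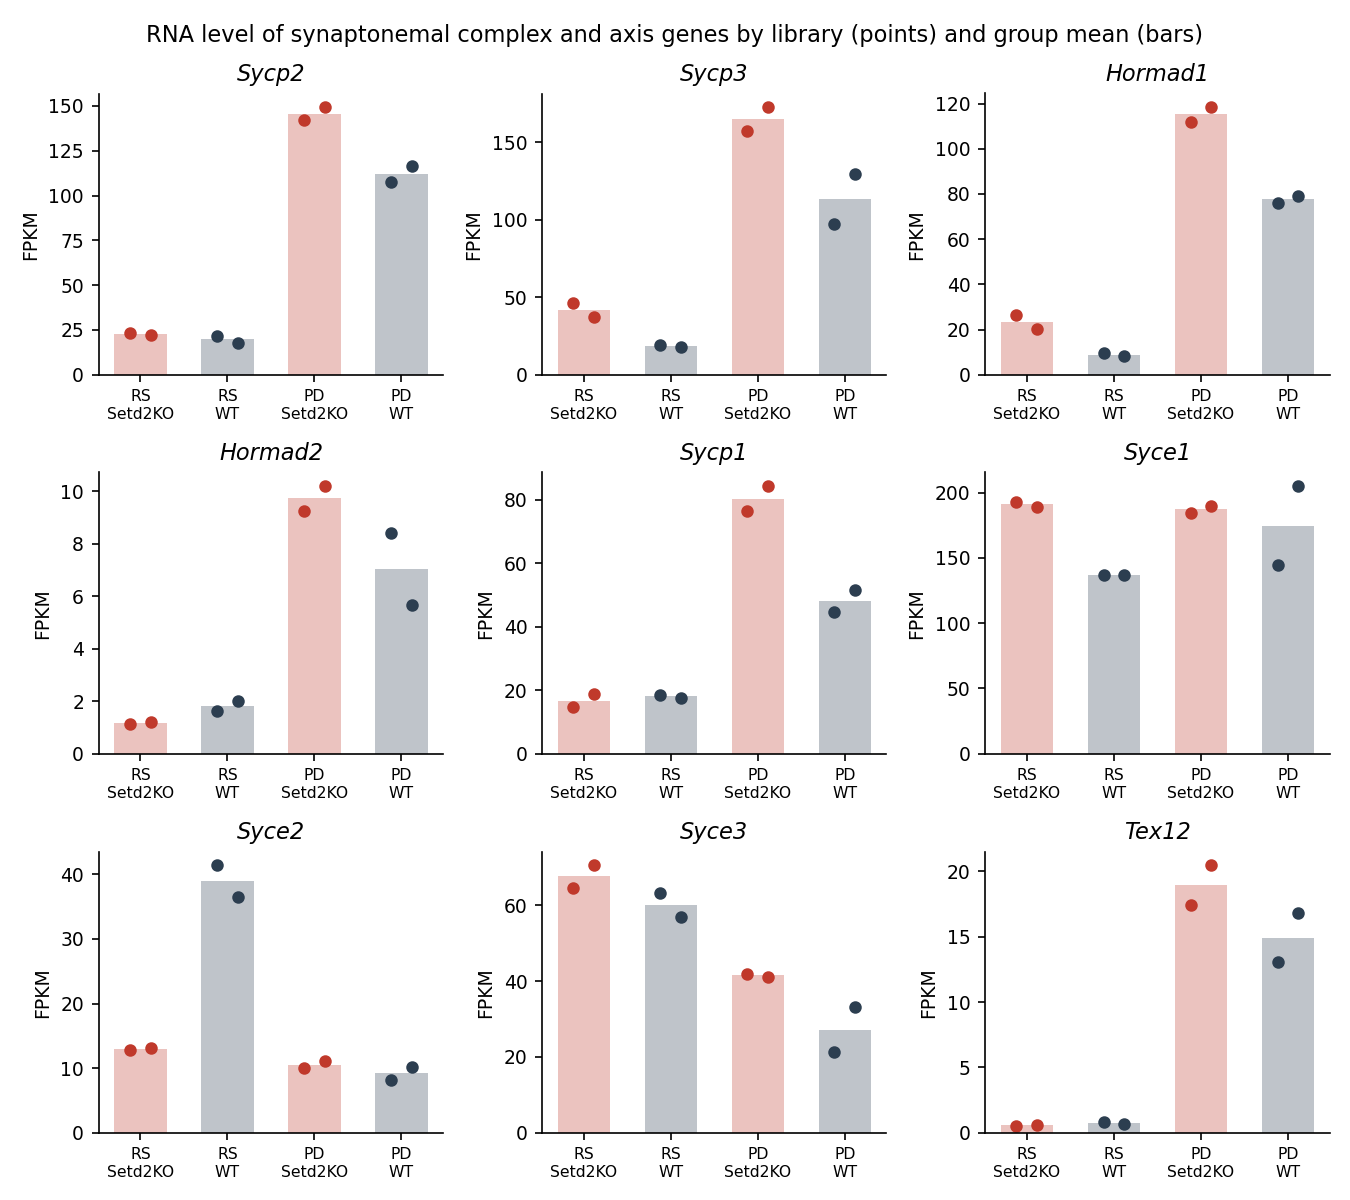
RNA level in FPKM (vertical axis, from 0, own scale per gene) of each of the 9 genes in RS Setd2KO, RS WT, PD Setd2KO and PD WT. Points are the 2 libraries of a group and bars their mean. Sycp2, Sycp3, Hormad1, Hormad2, Sycp1 and Tex12 are high in PD, Syce2 is high in RS WT at 41.4 and 36.4 FPKM with 12.9 and 13.1 FPKM in RS Setd2KO, and Syce1 is high in all 4 groups.

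The order of the 9 levels in RS WT was Syce1, Syce3, Syce2, Sycp2, Sycp3, Sycp1, Hormad1, Hormad2 and Tex12, with overlapping libraries between Sycp2 and Sycp3 and between Sycp3 and Sycp1. In PD WT it was Syce1, Sycp3, Sycp2, Hormad1, Sycp1, Syce3, Tex12, Syce2 and Hormad2, where the libraries of Sycp3 and Sycp2 overlapped and those of Syce2 and Hormad2 overlapped. PD Setd2KO gave the same order as PD WT, with overlap only between Syce2 and Hormad2. In RS Setd2KO the order differed from RS WT: Syce1 and Syce3 were followed by Sycp3, Hormad1, Sycp2, Sycp1, Syce2, Hormad2 and Tex12, with overlap between Hormad1 and Sycp2. Syce2 thus had rank 7 there and rank 3 in RS WT, and Hormad1 rank 4 there and rank 7 in RS WT.

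The second comparison was between Setd2KO and WT within round spermatids. Hormad1 and Sycp3, both axis genes, were higher in Setd2KO (2 of 9 genes, beside 20.9% of tested genes called higher), and Syce2, of the central element, was lower (1 of 9, beside 21.8% called lower). The other 6 did not pass the test. The Setd2KO and WT libraries did not overlap for 8 of the 9, as for 78.1% of tested genes. The median log2 change of the 9 was 0.17, beside 0.02 for all tested genes.

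Syce2 had 12.9 and 13.1 FPKM in RS Setd2KO, against 41.4 and 36.4 FPKM in RS WT. Both Setd2KO libraries were below both WT libraries, by 3.0-fold in mean FPKM (log2 change -1.51 ± 0.14, adjusted p = 1.78e-05, limma). In PD Setd2KO the level was 10.0 and 11.1 FPKM, and the difference between the stages within Setd2KO, given further on, did not pass the test. Syce2 shares 1060 bases with Gcdh, a mitochondrial dehydrogenase gene on the opposite strand, and whether the authors counted reads by strand is not given in the sources used here. Gcdh itself had 0.472 and 0.529 FPKM in RS Setd2KO, against 1.09 and 0.928 FPKM in RS WT, and was called lower as well (log2 change -0.42, adjusted p = 0.00148). Reads from the shared stretch cannot be told apart. The lower Syce2 level ran beside the lower sums of round and of elongating spermatid markers in RS Setd2KO given above, and their part in the result was not tested.

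Hormad1 had 26.6 and 20.1 FPKM in RS Setd2KO, against 9.48 and 8.15 FPKM in RS WT, and was 2.65-fold higher in mean FPKM (log2 change 1.30 ± 0.16, adjusted p = 9.18e-05, limma). Sycp3 had 46.1 and 37.1 FPKM in RS Setd2KO, against 19.0 and 17.6 FPKM in RS WT, and was 2.27-fold higher (log2 change 1.13 ± 0.17, adjusted p = 0.000473). For both genes the lower Setd2KO library stood above the higher WT library. These 2 genes had the most similar profiles of any pair among the 9, with a Pearson correlation of 0.997 over the 8 libraries, where genes share the depth and the stage of each library; no p is given for it. The Sycp3 3′ end shares 424 bases with Chpt1, a phospholipid synthesis gene on the opposite strand. Chpt1 had 15.4 and 15.0 FPKM in RS Setd2KO, against 19.3 and 17.6 FPKM in RS WT, and was not called (adjusted p = 0.206).

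Sycp2, Sycp1 and Tex12, which like Hormad1 and Sycp3 were higher in PD WT than in RS WT, are set beside these results, and Hormad2 follows with the remaining genes. Sycp2 had 23.4 and 22.2 FPKM in RS Setd2KO, against 21.8 and 17.9 FPKM in RS WT (log2 change 0.20 ± 0.14, adjusted p = 0.292, limma). Sycp1 had 14.7 and 18.9 FPKM in RS Setd2KO, against 18.6 and 17.7 FPKM in RS WT, with overlapping libraries (log2 change -0.12 ± 0.15, adjusted p = 0.562). Tex12, the steepest of the 9 between the stages, had 0.503 and 0.614 FPKM in RS Setd2KO, against 0.821 and 0.701 FPKM in RS WT (log2 change -0.18 ± 0.14, adjusted p = 0.327). None of these 3 was called, and Tex12 stood in RS at 2.65% and 3.24% of its PD level in Setd2KO and 5.49% and 4.69% in WT. Hormad1, by contrast, stood at 23.1% and 17.5% in Setd2KO and 12.2% and 10.5% in WT, and Sycp3 at 27.9% and 22.5% in Setd2KO and 16.8% and 15.6% in WT. Of the 24 spermatocyte-specific genes, 7 were called higher in RS Setd2KO and 0 lower, beside 20.9% of all tested genes called higher. That set was chosen for low RS WT levels, so the count is a description only. The leptotene and zygotene sum was higher there through Meioc, and the other 5 markers did not sum higher. Of those 5, Stra8 and Prdm9 stood higher in both RS Setd2KO libraries, Mei1 and Meiob lower, and Dmc1 overlapped. Stra8 had 0.663 and 0.562 FPKM in RS Setd2KO, against 0.0971 and 0.0676 FPKM in RS WT. Mei1 had 0.798 and 1.03 FPKM in RS Setd2KO, against 1.68 and 1.61 FPKM in RS WT. The part of the 24 genes, of these markers and of the pachytene and diplotene markers in the Hormad1 and Sycp3 results was not tested.

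The remaining 3 genes were near the threshold or away from it. Syce1 had 193 and 189 FPKM in RS Setd2KO, against 136.6 and 137.0 FPKM in RS WT (log2 change 0.48 ± 0.18, adjusted p = 0.0504, limma), with both Setd2KO libraries above both WT libraries. Without PD WT library 1 or PD WT library 2, which had 144 and 205 FPKM, the adjusted p was 0.000879 or 0.000893, and the gene was called in 5 of 14 alternatives. Hormad2 had 1.13 and 1.22 FPKM in RS Setd2KO, against 1.61 and 2.01 FPKM in RS WT (log2 change -0.37 ± 0.16, adjusted p = 0.0803), so it lay on the other side of 0 from Hormad1, and it was called without PD WT library 1 or 2 (adjusted p = 0.0233 and 0.0236). Syce3 had 64.6 and 70.6 FPKM in RS Setd2KO, against 63.1 and 56.9 FPKM in RS WT (log2 change 0.17 ± 0.19, adjusted p = 0.490).

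Ratios within a library do not depend on depth. The ratio of Hormad1 to Hormad2 was 23.5 and 16.5 in RS Setd2KO, against 5.88 and 4.06 in RS WT. The ratio of Sycp3 to Sycp2 was 1.97 and 1.67 in RS Setd2KO, against 0.875 and 0.984 in RS WT. The ratio of Syce1 to Syce2 was 14.9 and 14.5 in RS Setd2KO, against 3.30 and 3.76 in RS WT. In each of the 3 ratios the RS genotypes did not overlap. In PD the genotypes overlapped for all 3. Hormad1 to Hormad2 stood there at 12.1 and 11.6 in Setd2KO, against 9.02 and 13.9 in WT. Sycp3 to Sycp2 stood at 1.11 and 1.16 in Setd2KO, against 0.903 and 1.11 in WT. Syce1 to Syce2 stood at 18.4 and 17.1 in Setd2KO, against 17.8 and 20.0 in WT. These 3 were picked from a longer list of ratios, and others kept the genotypes apart in PD too. Syce1 to Sycp1 stood there at 2.42 and 2.25 in Setd2KO, against 3.23 and 3.99 in WT. Sycp3 to Sycp1 stood at 2.06 and 2.05 in Setd2KO, against 2.18 and 2.52 in WT. Syce3 to Sycp1 overlapped in PD, and all ratios of the list differed without overlap in RS. No share over other gene pairs was taken, so the ratios are a description.

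**Figure D2:**
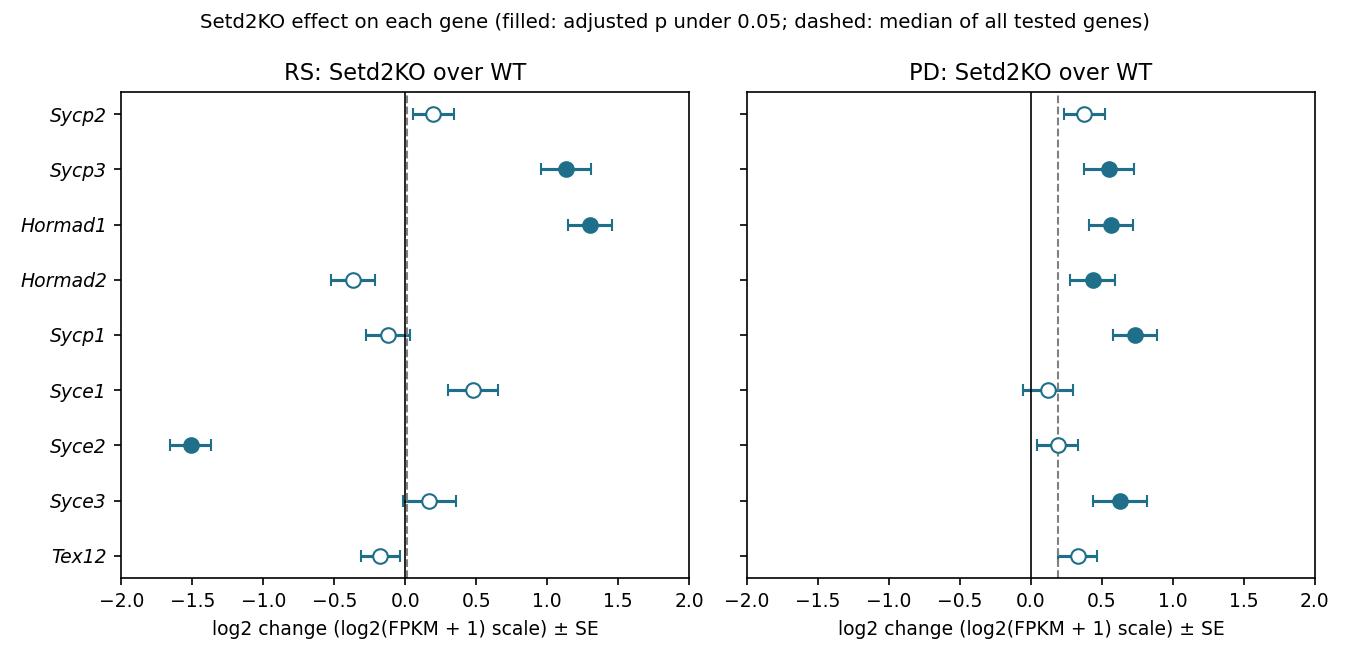
Change of each gene in Setd2KO relative to WT in RS (left) and PD (right), as log2 change of group means on the log2(FPKM + 1) scale (horizontal axis) with its SE; filled points had an adjusted p under 0.05 and the dashed line is the median of all tested genes. In RS Syce2 lies at -1.51, Sycp3 at 1.13 and Hormad1 at 1.30, while in PD all 9 lie above 0, between 0.12 and 0.73 (Syce1, the lowest, stood at -0.0163 with upper-quartile scaling).

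The third comparison was between Setd2KO and WT in spermatocytes, the cells that hold the assembled complex. All 9 genes had a higher mean in PD Setd2KO (with upper-quartile scaling Syce1 did not), and 5 were called higher, namely Sycp1, Syce3, Hormad1, Sycp3 and Hormad2, with none called lower. Among all tested genes 29.7% were called higher and 6.29% lower, and their median log2 change was 0.19. The share of higher genes among those called was 82.5%, against 66.3% with upper-quartile scaling and 45.7% with quantile normalization, so the changes are also given relative to that median. The median of the 9 was 0.43, or 0.24 relative to the median of all tested genes. Setd2KO and WT libraries did not overlap for 7 of the 9, as for 71.2% of tested genes.

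Sycp1 had 76.3 and 84.3 FPKM in PD Setd2KO, against 44.6 and 51.5 FPKM in PD WT. Its log2 change was 0.73 ± 0.15 (adjusted p = 0.00464, limma), or 0.54 relative to the median of all tested genes. It was the one gene of the 9 whose call in PD held under each of 14 alternative settings, with adjusted p-values from 0.00289 to 0.0413.

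Hormad1 had 112 and 119 FPKM in PD Setd2KO, against 76.0 and 79.2 FPKM in PD WT (log2 change 0.56 ± 0.16, adjusted p = 0.0175, limma). Sycp3 had 157 and 173 FPKM in PD Setd2KO, against 97.1 and 130 FPKM in PD WT (log2 change 0.55 ± 0.17, adjusted p = 0.0302). Syce3 had 41.9 and 41.1 FPKM in PD Setd2KO, against 21.2 and 33.1 FPKM in PD WT (log2 change 0.63 ± 0.19, adjusted p = 0.0242). In all 3 genes both Setd2KO libraries were above both WT libraries, and relative to the median of all tested genes the changes were 0.37, 0.36 and 0.44. These calls were lost without PD Setd2KO library 1 (adjusted p = 0.0639 for Hormad1, 0.0818 for Sycp3 and 0.0997 for Syce3), without PD Setd2KO library 2 (0.107, 0.170 and 0.0885) and without PD WT library 1 (0.0551, 0.108 and 0.0628). With the 4 PD libraries fitted alone, none of the 3 was called (0.0509 for Hormad1, 0.0976 for Sycp3 and 0.0564 for Syce3). The Sycp3 call was also lost without RS WT library 1 (0.0501) or 2 (0.0503), that of Hormad1 under quantile normalization (0.0793) and upper-quartile scaling (0.0587), and those of Sycp3 (0.0632) and Syce3 (0.0610) with no filter on low values. Of 14 alternatives, the call held in 8 for Hormad1, 7 for Sycp3 and 9 for Syce3. PD WT library 1 had the lowest FPKM total of the 8, 181915, with the others between 219288 and 234791.

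Hormad2 had 9.27 and 10.2 FPKM in PD Setd2KO, against 8.43 and 5.69 FPKM in PD WT (log2 change 0.43 ± 0.16, adjusted p = 0.04996, limma), and its call held in 1 of 14 alternatives, that without PD WT library 1. Sycp2 had 142 and 149 FPKM in PD Setd2KO, against 108 and 116 FPKM in PD WT (log2 change 0.38 ± 0.14, adjusted p = 0.0627). Tex12 had 17.4 and 20.5 FPKM in PD Setd2KO, against 13.1 and 16.8 FPKM in PD WT (log2 change 0.33 ± 0.14, adjusted p = 0.0859). Their libraries did not overlap between genotypes, yet neither Sycp2 nor Tex12 was called, and relative to the median of all tested genes they changed by 0.19 and 0.14. Syce2 had 10.0 and 11.1 FPKM in PD Setd2KO, against 8.11 and 10.3 FPKM in PD WT (log2 change 0.19 ± 0.14, adjusted p = 0.322). Syce1 had 184 and 190.0 FPKM in PD Setd2KO, against 144 and 205 FPKM in PD WT (log2 change 0.12 ± 0.18, adjusted p = 0.621). Both overlapped between genotypes, and the Syce1 change was -0.13 without PD WT library 1 and -0.0163 with upper-quartile scaling. Without PD WT library 2, Sycp2 (adjusted p = 0.0341), Tex12 (0.0243) and Syce1 (log2 change 0.37, adjusted p = 0.00956) were called.

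The percentages given above for spermatid-specific genes in PD rest on genes chosen for low PD WT levels. Of these 517 genes, 447 were called higher in PD Setd2KO and 4 lower, beside 29.7% and 6.29% of all tested genes. Given that choice, the count is a description only. Syce2 and Syce3, the members that are higher in RS WT than in PD WT, changed in PD by 0.19 and 0.63, while Sycp1, which is lower in RS, changed by 0.73. Leptotene and zygotene, spermatogonial and round spermatid markers also summed higher in PD Setd2KO. Mei1 went the other way, with 0.556 and 0.825 FPKM in PD Setd2KO, against 1.09 and 1.35 FPKM in PD WT. So did Nanos3, with 0.531 and 0.395 FPKM in PD Setd2KO, against 0.670 and 0.689 FPKM in PD WT. Actl7b overlapped, and all other markers of these lists stood higher in both PD Setd2KO libraries. The part of any of these in the PD results was not tested.

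The step between the stages was then read within Setd2KO. There 6 genes fell in RS relative to PD (48.5% of tested genes did) and 1 rose (34.2% did), so 7 changed (82.7% did). The libraries of the stages did not overlap for 8 of the 9, as for 94.6% of tested genes. The log2 change was -3.68 for Tex12, -2.62 for Sycp2, -2.30 for Hormad2, -2.27 for Hormad1, -2.20 for Sycp1 and -1.97 for Sycp3, with adjusted p-values of 5.63e-09 to 7.65e-07 in limma. These are the same 6 genes as in WT. Syce3 was 0.69 higher (adjusted p = 0.00521). Syce2, which rose 1.98 in WT, had a log2 change of 0.28 ± 0.14 (adjusted p = 0.0895), and Syce1 one of 0.03 ± 0.18 (adjusted p = 0.885), which was -0.0872 with quantile normalization. The higher Syce2 level in RS Setd2KO was called in 5 of 14 alternatives, with a largest log2 change of 0.46 under quantile normalization (adjusted p = 0.00345); 2 of them left out PD WT library 1 or 2 (adjusted p = 0.0324 and 0.0325).

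**Figure D3:**
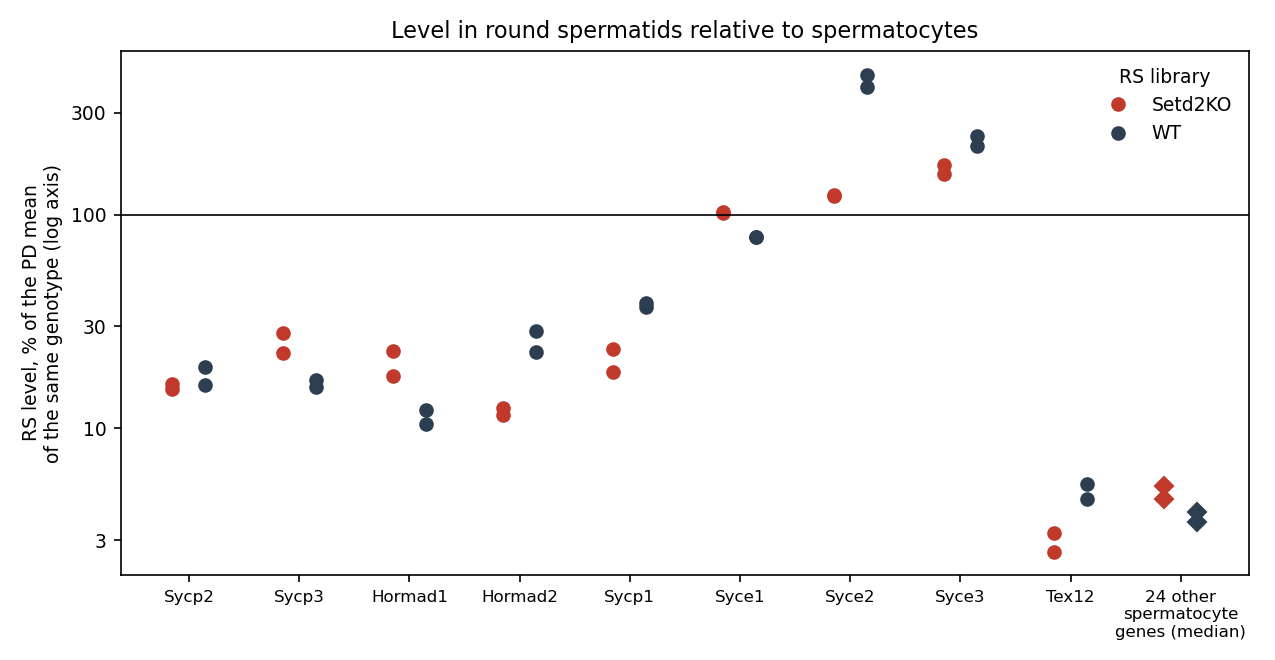
Level of each gene in each RS library as a percentage of its mean in the PD libraries of the same genotype (vertical axis, log scale, line at 100%), with Setd2KO left of WT; diamonds give the median of 24 other spermatocyte-specific genes. Syce2 stands at 122% and 124% in Setd2KO and at 451% and 397% in WT, Hormad1 and Sycp3 are higher in Setd2KO, and Sycp1, Hormad2 and Tex12 are lower in Setd2KO.

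Whether the Setd2KO effect differed between RS and PD was tested directly as a difference of differences. It did for 4 of the 9 genes (35.1% of tested genes), 1 upward (7.76% of tested genes) and 3 downward (27.3%), beside a median of -0.16 for all tested genes. Upward genes made up 22.1% of all genes called here, against 41.5% with upper-quartile scaling and 52.9% with quantile normalization. The effect on Syce2 was 1.70 ± 0.20 log2 units lower in RS than in PD (difference -1.70, adjusted p = 0.000306, limma), and this held in each of 13 alternatives. The effect on Hormad1 was 0.74 ± 0.22 higher in RS (adjusted p = 0.0245). For Sycp1 the difference was -0.85 ± 0.22 (adjusted p = 0.0117), with a higher level in PD Setd2KO than in PD WT and no call in RS. For Hormad2 it was -0.80 ± 0.22 (adjusted p = 0.0162), with opposite signs in the 2 stages. The difference was not called for Sycp3 (0.58, adjusted p = 0.0909), so that its Setd2KO effects in RS and PD are not shown to differ, except without PD WT library 1 (0.79, adjusted p = 0.0175), with upper-quartile scaling (0.76, adjusted p = 0.0167) and with quantile normalization (0.67, adjusted p = 0.0228). Without RS Setd2KO library 1 the difference was no longer called for Sycp1 (adjusted p = 0.0664), Hormad1 (0.128) and Hormad2 (0.0527). The Sycp1 call was also lost without PD Setd2KO library 2 (0.0512), that of Hormad2 without RS WT library 2 (0.0760), with no filter (0.0504), with quantile normalization (0.0637) and with upper-quartile scaling (0.0882), and that of Hormad1 without RS WT library 2 (0.0993) or PD Setd2KO library 1 (0.0845) or 2 (0.0560). Of 13 alternatives, the call held in 11 for Sycp1, 9 for Hormad1 and 8 for Hormad2.

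H3K36me3 cover was read as the share of each gene body, taken from the deposited RNA tables on build mm9, that lay under peaks. With 1 list per group no test of cover is possible. In RS Setd2KO and in PD Setd2KO, 0 of the 9 genes had a peak, beside 5.55% and 2.09% of 11083 tested autosomal genes. The closest any Setd2KO peak came was 18048 bases, to Sycp2 in RS Setd2KO, and 330149 bases, to Syce2 in PD Setd2KO. In WT, 7 of the 9 carried a peak in RS and all 9 in PD, beside 73.4% and 75.6% of tested autosomal genes. Among genes of at least 5 FPKM in the same group, the shares were 4.81% in RS Setd2KO, 79.4% in RS WT, 1.51% in PD Setd2KO and 95.4% in PD WT.

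For most of the 9 the WT cover was broad and alike in both stages. Sycp2 (chromosome 2, 178080001 to 178142363, minus strand) was covered over 97.5% of its body in RS WT and 93.5% in PD WT. Sycp3 (chromosome 10, 87922332 to 87935981, plus strand) was covered over 99.0% in RS WT and 92.4% in PD WT, and its single RS WT peak runs on over Chpt1. Syce1 (chromosome 7, 147963128 to 147973753, minus strand) was covered over 98.9% in RS WT and 98.8% in PD WT, by 1 peak each. Syce2 (chromosome 8, 87396010 to 87411345, plus strand) was covered over 92.7% in RS WT and 90.6% in PD WT. These 4 thus held nearly full cover in both WT stages, although Sycp2 and Sycp3 RNA was lower and Syce2 RNA higher in RS. The part of the Syce2 body under peaks with a score of at least 100, the authors' own peak score, was 92.7% in RS WT and 20.1% in PD WT. Tex12 (chromosome 9, 50365253 to 50369373, minus strand) was covered over 52.4% in RS WT and 48.2% in PD WT, in its downstream part. Its RS WT peak, of 7844 bases with a score of 1028, runs on past the downstream end of the gene. Its PD WT peak, of 1985 bases with a score of 120, lies within the gene. Sycp1 (chromosome 3, 102622422 to 102740023, minus strand) carried 17 peaks over 66.7% of its 117602 bases in RS WT and 23 peaks over 61.7% in PD WT.

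Hormad1, Hormad2 and Syce3 differed between the WT stages. Hormad1 (chromosome 3, 95363599 to 95389720, plus strand) had no peak in RS WT, the nearest being 26427 bases away, against 4 peaks over 98.6% of its body in PD WT. Of 3418 tested autosomal genes covered over at least 90% in PD WT, 270 (7.90%) had no peak in RS WT, and of these 191 had at least 5 FPKM in RS WT, as Hormad1 did. Hormad2 (chromosome 11, 4246386 to 4341085, minus strand) was covered over 27.9% in RS WT, at the start and the downstream end, against 71.4% in PD WT. Under peaks of score 100 or more, its cover was 27.9% in RS WT, against 42.8% in PD WT. Syce3 (chromosome 15, 89220605 to 89240694, minus strand) had no peak in RS WT, the nearest being 5567 bases away, against 2 weak peaks over 12.7% of its body in PD WT with a top score of 80.0. Syce3 RNA was 63.1 and 56.9 FPKM in RS WT, and among 1147 tested autosomal genes above 50 FPKM there, 288 had no RS WT peak. The 3 genes called between the genotypes in RS thus comprised 2 with nearly full cover in RS WT, Syce2, which was lower in Setd2KO, and Sycp3, which was higher, and 1 with none, Hormad1, which was higher.

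**Figure D4:**
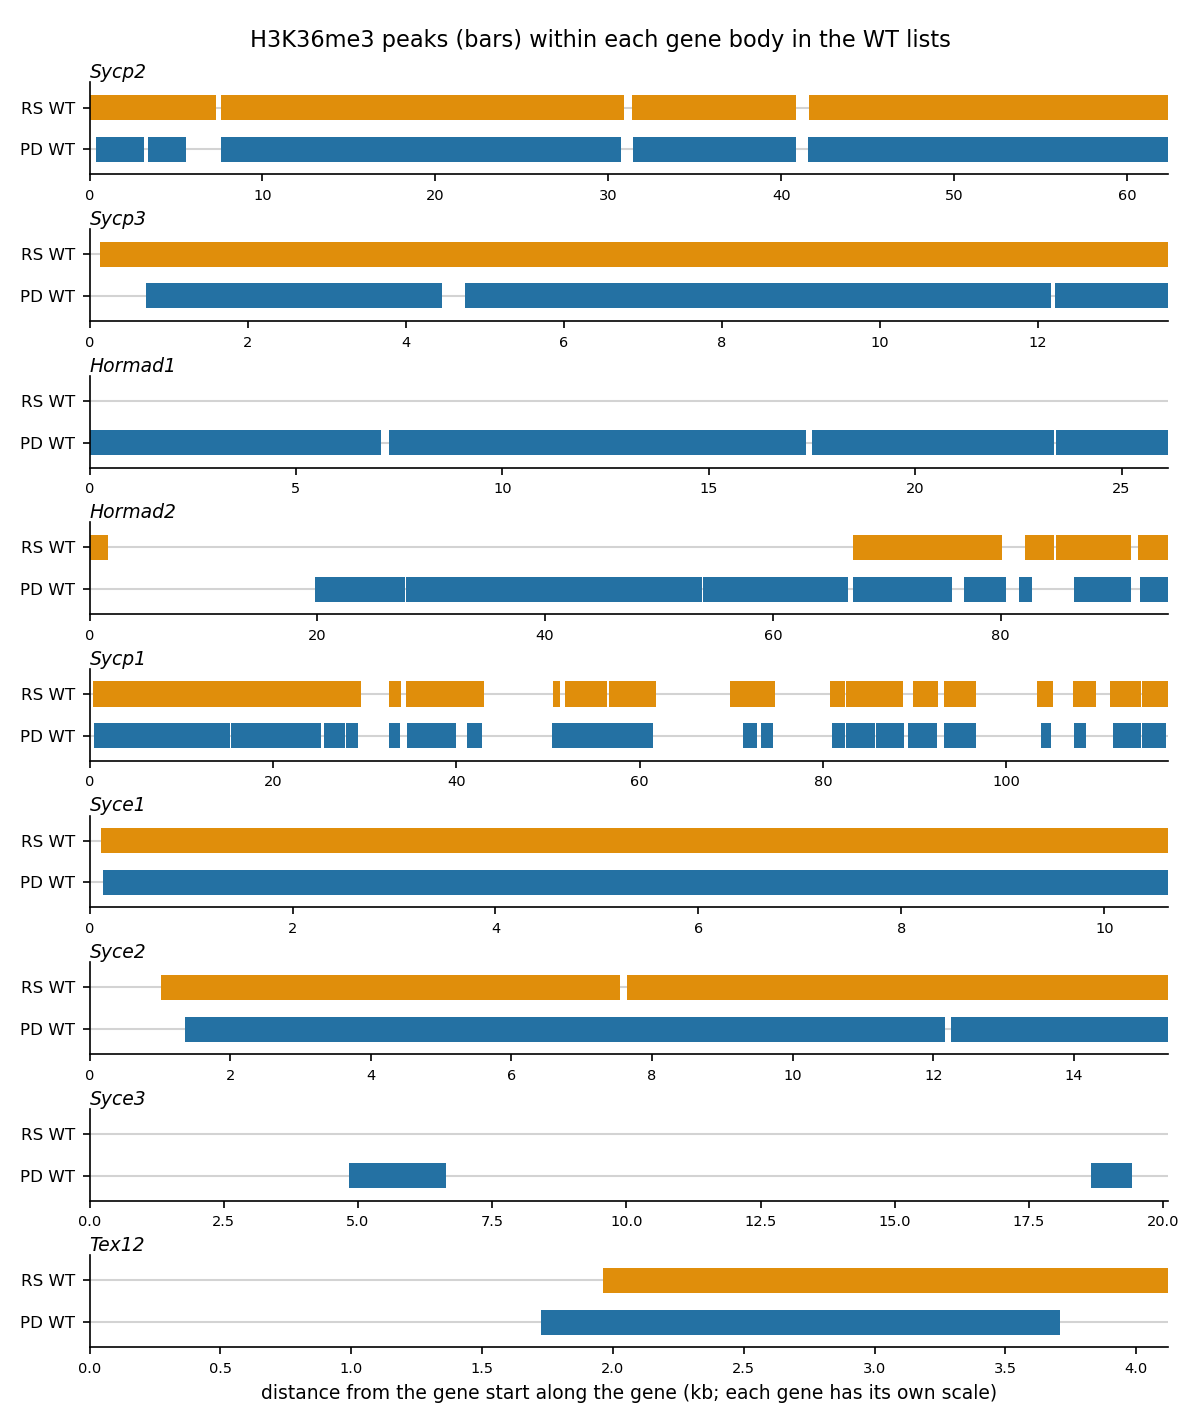
H3K36me3 peaks (bars) along each gene body in RS WT (upper line) and PD WT (lower line), by distance in kb from the gene start in the direction of transcription. Hormad1 and Syce3 have no bar in RS WT, Hormad2 has bars at its start and downstream end, and Sycp2, Sycp3, Syce1 and Syce2 are covered over at least 90% in both; the 2 Setd2KO lists hold no peak in any of the 9.

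Other genes of meiotic axes, recombination and chromosome movement were read from a list of 43, of which 40 were matched and 36 tested. In RS, 7 were called higher and 12 lower in Setd2KO (beside 20.9% and 21.8% of tested genes), and in PD 11 higher and 4 lower (beside 29.7% and 6.29%). Their median log2 change was -0.04 in RS and 0.20 in PD, beside 0.02 and 0.19 for all tested genes. Rec8, the meiotic cohesin subunit on which the axis is built, had 19.1 and 28.2 FPKM in RS Setd2KO, against 57.7 and 48.7 FPKM in RS WT (log2 change -1.16, adjusted p = 0.00118, limma). This concerns the post-meiotic stage, as Rec8 RNA was higher in RS WT than in PD WT (log2 change 4.64, adjusted p = 3.97e-09). In PD its Setd2KO change was 0.56 and was not called (adjusted p = 0.0537). Ccdc36 (also called Iho1), whose product binds HORMAD1 on unsynapsed axes and promotes DNA break formation, was lower in both stages. It had 2.28 and 1.67 FPKM in RS Setd2KO, against 4.50 and 5.13 FPKM in RS WT (log2 change -0.97, adjusted p = 0.000324), and 4.29 and 4.66 FPKM in PD Setd2KO, against 7.40 and 9.18 FPKM in PD WT (log2 change -0.76, adjusted p = 0.00248). H2afx, the histone variant phosphorylated around unsynapsed chromatin, was higher in both. It had 13.7 and 10.6 FPKM in RS Setd2KO, against 4.76 and 5.92 FPKM in RS WT (log2 change 1.05, adjusted p = 0.00271), and 142 and 141 FPKM in PD Setd2KO, against 51.4 and 84.5 FPKM in PD WT (log2 change 1.09, adjusted p = 0.00332). Smc1a, a cohesin subunit, had 2.13 and 1.97 FPKM in RS Setd2KO, against 0.682 and 0.590 FPKM in RS WT (log2 change 0.90, adjusted p = 1.37e-05). In PD, Ccnb1ip1, which encodes the crossover factor HEI10, had 8.95 and 9.69 FPKM in Setd2KO, against 4.50 and 5.54 FPKM in WT (log2 change 0.78, adjusted p = 0.000649).

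The 9 genes did not share one profile. Centred on its own mean over the 8 libraries, Sycp1 lay nearest to the mean profile of the 9, at a Euclidean distance of 0.70 log2 units, and Syce2 farthest, at 3.94. The 5 other genes closest to that mean profile were Fanci (0.123), Cul2 (0.145), Napg (0.156), Lrpprc (0.158) and Rnf170 (0.172). Fanci, for example, had 4.66 and 4.80 FPKM in RS Setd2KO, against 4.77 and 4.34 FPKM in RS WT, and 15.6 and 16.4 FPKM in PD Setd2KO, against 11.4 and 13.1 FPKM in PD WT. Across the 8 libraries Sycp2 and Tex12 correlated at 0.994 and Sycp1 and Sycp2 at 0.973, whereas Syce2 and Hormad1 stood at -0.875 and Syce3 and Hormad2 at -0.815. These correlations rest on 4 libraries of each stage, carry no p and describe these 8 libraries.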

How the data were processed

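RNA levels were deposited by the authors as FPKM, in 1 table per group and 8 libraries in all, so each comparison crosses tables; per the submitters' processing notes they were made with CASAVA, TopHat2, Cufflinks and Cuffdiff against mm9 (versions not given). Per the labels' protocols, RNA was selected on poly A beads and libraries were directional. H3K36me3 peaks came as 1 deposited list per group with a score for each peak by the authors (lowest 50) and MACS peak names; CASAVA, Bowtie and bedtools are listed for them in the submitters' processing notes. Spike-in chromatin was added, but scaling by it is not stated, and inputs were not analysed here. The row naming no gene, at most 0.00366% of FPKM, was dropped.

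On log2(FPKM + 1), the 11451 genes whose mean reached 1 FPKM in 1 or more groups were fitted in limma 3.58.1 (R 4.3.3, intensity trend) with 4 group means, and contrasts were adjusted by Benjamini-Hochberg. The fit had 4 residual degrees of freedom besides the prior ones, and the procedure was tested on simulated data. A gene was covered where a peak overlapped it by at least 1 base. The 9 genes and Setd2 were always named, besides the 4 listed meiotic genes that changed most (adjusted p under 0.05, no overlap) between genotypes in each stage (1 is not reported here) and the 5 other genes nearest to the mean profile. Members and lists were chosen with earlier results of these data known. Alternatives were the pseudocount, the filter, 2 scalings, a replicate block, the 4 compared libraries alone, each library left out, a peak score of at least 100 and cover of at least 50%.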

Additional observations from a re-analysis of the deposited data

Results flagged for a closer look

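The Setd2KO effect, Setd2KO over WT, differed between RS and PD in 4 of the 9 genes by a direct test in limma. For Syce2 the effect was -1.51 in RS and 0.19 in PD, a difference of -1.70 (SE 0.20, adjusted p = 0.000306). For Sycp1 it was -0.12 in RS and 0.73 in PD, a difference of -0.85 (SE 0.22, adjusted p = 0.0117). For Hormad1 it was 1.30 in RS and 0.56 in PD, a difference of 0.74 (SE 0.22, adjusted p = 0.0245). For Hormad2 it was -0.37 in RS and 0.43 in PD, a difference of -0.80 (SE 0.22, adjusted p = 0.0162). Relative to the difference of -0.16 at the median of all tested genes, these are -1.54 for Syce2, -0.69 for Sycp1, 0.89 for Hormad1 and -0.65 for Hormad2. Of 13 alternatives, the call held in 13 for Syce2, 11 for Sycp1, 9 for Hormad1 and 8 for Hormad2; the settings and libraries that ended it are named with that comparison.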

How the results depend on the processing

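Over the alternatives, 544 of 620 log2 changes of the 9 genes kept their direction and their side of the threshold. Of the rest, 30 became stronger, 42 became weaker and 4 changed sign. Counts of called or covered genes are not among these 620 and are given below. In RS the calls for Syce2 (log2 change -1.60 to -1.34, highest adjusted p 0.000646), Hormad1 (1.11 to 1.49, 0.00234) and Sycp3 (0.98 to 1.28, 0.00917) held in each of 14 alternatives. In PD, 5 of the 9 genes were called, against 2 with no filter on low values, 3 with upper-quartile scaling, 3 with quantile normalization and 1 with only the 4 PD libraries, and 1 to 7 with each library left out. All genes called in PD numbered 4125, against 2706 with only the 4 PD libraries and 2582 to 4584 with each library left out. In RS, 3 of the 9 were called, against 5 with only the 4 RS libraries and 3 to 5 with each library left out, and over all genes 4886, against 2955 to 5722. RS against PD called 8 of the 9 in WT (8 to 9 with each library left out) and 7 in Setd2KO (7 to 8). The difference between the effects was called for 4 of the 9 (1 to 6) and for 4014 genes (2831 to 4342); with only the 4 libraries compared it could not be fitted. Signs changed for Syce1 in PD, to -0.0163 with upper-quartile scaling and to -0.13 without PD WT library 1 (-0.13 to 0.37 with each library left out). They also changed for Syce1 between stages in Setd2KO, to -0.0872 with quantile normalization. For Sycp1 in RS the change was 0.0521 without RS Setd2KO library 1 (-0.29 to 0.05 with each library left out). None of the values with a changed sign was called. The cause of these changes was not tested. Tex12 was below the filter with only the 4 RS libraries, which gave it no value. With a library left out, the lone library of its group is assumed to vary like the others. Deviations of same-numbered libraries correlated at -0.309 to 0.068 between groups. Such a correlation across genes cannot show whether libraries of different groups came from the same mice. With the replicate block, 4 of the 9 were called in PD and 3 in RS, 8 and 7 between the stages and 4 for the difference. With a peak score of at least 100, 7 of the 9 had cover in RS WT and 8 in PD WT, and with cover of at least 50%, 6 and 7.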
